A study of Mus musculus with 4 samples.

Results

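The transcripts described here are 10 transcription factors and regulators of the circadian clock and its direct outputs, Arntl (also written Bmal1), Npas2, Clock, Nfil3, Dbp, Per2, Per3, Nr1d1, Nr1d2 and Ciart, among 21659 genes named on the arrays. They were taken as all probes annotated with a RefSeq or Ensembl transcript of these genes, which gave 11 probes among 55681, a pair of them for Dbp. The genes were chosen by their measured differences between these same arrays, so all differences between arrays below are descriptions and carry no test. Of the 10 genes, 9 were well above background on all 4 arrays. The dim one was Npas2, a paralog of Clock, which was not well above background on any array and is given no fold change. Its 4 signals were between 0.0121 and 0.0375 times the 75th percentile of the array.

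The hearts came from male C57BL/6J mice that underwent sham surgery or transverse aortic constriction (TAC), a ligature around the aortic arch that loads the left ventricle with pressure. Hearts were taken 2 or 8 weeks after the operation, and the labels give the age as 10 weeks for both pools at 2 weeks and 16 weeks for both pools at 8 weeks. The methods give an age at surgery that is higher than these ages allow. Each of the 4 conditions was a single 1-color Agilent array of total RNA pooled from several hearts, so there was no replicate and the spread between mice was not measured. The hour at which hearts were taken and the lighting schedule are not given in the sources used here. No spot was saturated, and each array measured 54.7% to 58.5% of its probes well above background. The 75th percentile of the signal, by which each array was scaled, was between 206.0 and 248.5 units of intensity.

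The labels were checked with genes of the hypertrophic response. Nppa, the atrial natriuretic peptide, had log2 differences of TAC minus sham of 1.84 at 2 weeks and 2.65 at 8 weeks, and Nppb, Myh7 and Acta1 were also over 2-fold higher at both times, while Myh6 and Atp2a2 were lower by under 2-fold. The 6 cardiomyocyte markers were well above background on all arrays, with a summed signal of 9326 times the 75th percentile in sham and 8748 in TAC pools at 2 weeks, and of 8807 and 7793 at 8 weeks. Both white fat markers were below background on all arrays, while 1 of the 2 brown fat markers was well above background on all 4. The brown fat markers summed to 40.9 and 35.5 in the sham pools at 2 and 8 weeks and to 39.8 and 47.6 in the TAC pools. The 4 atrial markers summed to 192 and 151 in the sham pools at 2 and 8 weeks and to 680 and 925 in the TAC pools, of which Nppa was the greater part. The other 3, Myl4, Myl7 and Sln, were all highest in the sham pool at 8 weeks. Against the sham pool at 2 weeks, Myl4 was at 0.32 and Myl7 at 1.80. For TAC minus sham at 8 weeks Myl4 was at -0.52, and Myl7 and Sln were over 2-fold lower. Myl7 and Sln were not well above background in the TAC pool at 8 weeks. The 3 macrophage markers summed to 30.2 and 30.7 in the sham pools and to 37.2 and 38.5 in the TAC pools. The 3 fibroblast markers summed to 156 and 179 in the sham pools and to 187 and 230 in the TAC pools. The part of these cell types in the differences below was not tested. In such pooled heart RNA, fewer cells of a type, less RNA per cell and a different share of the atria in the tissue cannot be told apart.

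The clock of mammalian cells is a feedback loop of transcription. ARNTL pairs with CLOCK or NPAS2 and activates genes with E-box elements in their promoters, among them the Per and Nr1d genes, Dbp and Ciart. The PER proteins and CIART repress this activity, and the NR1D proteins repress Arntl and Nfil3 through ROR elements. DBP activates and NFIL3 represses genes with D-box elements. In heart, as in other organs, Arntl and Npas2 peak at about the opposite time of day to Dbp and the Nr1d genes. For the description the genes were therefore put on 2 sides, with Arntl, Npas2, Clock and Nfil3 on the side that follows ROR elements or pairs in the activator, and the other 6 on the side that follows E-box and D-box elements.

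The upstream sequences of 3 of the genes are shown as examples, picked because each holds matches to the letters of 1 of these elements or its half-site. They are the 250 bases before the transcript start in RefSeq (GRCm38.p6), written on the strand of the gene, with motif matches in capitals. The window of Ciart is chr3:95882229-95882478 (minus strand), with 3 copies of the E-box CACGTG at 116, 58 and 44 bases before the start. That of Per3 is chr4:151044666-151044915 (minus strand), with 2 copies of the D-box TTATGTAA at 205 and 158 bases. That of Nfil3 is chr13:52981040-52981289 (minus strand), with 1 copy of AGGTCA, the half-site of ROR elements, read on the opposite strand at 12 bases.
Ciart: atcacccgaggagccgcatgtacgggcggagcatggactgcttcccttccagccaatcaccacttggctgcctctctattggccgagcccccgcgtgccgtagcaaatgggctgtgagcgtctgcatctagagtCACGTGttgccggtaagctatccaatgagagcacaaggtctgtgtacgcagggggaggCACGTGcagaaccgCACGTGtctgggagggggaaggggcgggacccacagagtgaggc
Per3: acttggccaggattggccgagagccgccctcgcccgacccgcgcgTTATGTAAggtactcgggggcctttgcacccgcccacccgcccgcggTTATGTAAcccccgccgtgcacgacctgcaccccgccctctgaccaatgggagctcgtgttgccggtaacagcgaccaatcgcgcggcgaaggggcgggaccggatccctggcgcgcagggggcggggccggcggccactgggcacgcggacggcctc
Nfil3: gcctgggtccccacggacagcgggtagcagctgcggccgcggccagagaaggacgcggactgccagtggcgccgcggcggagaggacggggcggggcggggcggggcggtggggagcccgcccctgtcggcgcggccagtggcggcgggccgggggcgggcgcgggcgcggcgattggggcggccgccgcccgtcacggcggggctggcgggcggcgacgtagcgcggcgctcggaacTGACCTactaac

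Among 32851 RefSeq promoter windows of this length, CACGTG was found in 6.02%, TTATGTAA or TTACGTAA in 0.931% and AGGTCA in 14.0%, with both strands searched and no motif overlapping another in the windows printed. The 9 genes with a window had 12 windows in all, since Arntl and Clock have several starts. AGGTCA was also present upstream of Nr1d2, at 77 bases before the start, and in 1 of 3 windows of Clock, at 119 bases. None of the 3 motifs was present in the windows of Arntl, Dbp, Npas2 and Nr1d1, which says only that these letters are not in this stretch. These matches are descriptions of sequence and not of binding.

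Arntl, the activator without which the loop stops, was lowest in the sham pool at 2 weeks. Its signal was 0.444 times the 75th percentile there, 0.887 in TAC hearts at 2 weeks, 0.848 in sham hearts at 8 weeks and 0.999 in TAC hearts at 8 weeks. The sham pool at 2 weeks stood apart and the other 3 pools lay close together. The log2 difference of TAC minus sham was 0.998 at 2 weeks, a ratio of 1.997 and so just under 2-fold, and 0.24 at 8 weeks. The sham pools differed by nearly as much as TAC and sham at 2 weeks, with 0.93 for 8 weeks minus 2 weeks. The noise between spots, estimated from probes with 10 spots on the array, gave an SD of 0.15 for the first and the last of these differences and of 0.13 for the difference at 8 weeks. This noise leaves out differences between mice, labelings and hybridizations, and each of the 11 probes was a single spot on the array.

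Nfil3, which encodes a repressor of D-box genes, had a signal of 2.33 in sham and 3.78 in TAC hearts at 2 weeks. At 8 weeks the values were 4.37 and 5.73. It was again lowest in the sham pool at 2 weeks. Within TAC hearts Arntl was higher at 8 weeks by 1.35 times the spot SD, and Nfil3 by 6.38 times. TAC minus sham was 0.70 at 2 weeks and 0.39 at 8 weeks, and 8 minus 2 weeks was 0.91 in sham and 0.60 in TAC hearts. Clock, the partner of ARNTL, whose transcript cycles weakly or not at all in many tissues, was nearly level, with signals of 1.03, 1.24, 1.10 and 1.18 in the same order of pools. Its largest difference, 0.26 for TAC minus sham at 2 weeks, was 2.13 times its spot SD of 0.12, and no pair of pools that were neighbors in its order differed by more than that SD.

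Dbp, which encodes an activator of D-box genes, showed the reverse order. Its signal was 71.4 in sham and 29.8 in TAC hearts at 2 weeks, and 44.8 in sham and 37.0 in TAC hearts at 8 weeks. The sham pool at 2 weeks was highest, and all 4 pools were separated by at least 3.48 times the spot SD. TAC hearts were 2.39-fold lower than sham hearts at 2 weeks, a log2 difference of -1.26 with a spot SD of 0.08, and 1.21-fold lower at 8 weeks. The sham pool at 8 weeks was 1.59-fold lower than that at 2 weeks. The other probe of Dbp gave log2 differences of -1.22 and -0.25 for TAC minus sham at 2 and 8 weeks and of -0.65 between the sham pools, so both probes placed the pools in the same order.

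Per3 and Per2 encode subunits of the repressor that closes the loop. Per3 had a signal of 0.398 in sham and 0.175 in TAC hearts at 2 weeks, while the pools at 8 weeks had 0.231 and 0.193. It was 2.28-fold lower after TAC at 2 weeks, and the sham pool at 8 weeks was 1.72-fold lower than that at 2 weeks, while the 3 pools other than sham at 2 weeks were not separated from their neighbors beyond 2 times the spot SD. For Per2 the sham and TAC pools had 0.229 and 0.126 at 2 weeks, then 0.206 and 0.183 at 8 weeks. In Per2 it was the TAC pool at 2 weeks that stood apart, with a log2 difference to sham of -0.86 (spot SD 0.28), while the sham pools differed by -0.15 (spot SD 0.25). Normexp background correction was run on the median signals of the spots and adds an offset. With it the differences of -0.86 and -0.15 became -0.38 and -0.07. TAC minus sham at 8 weeks was then -0.19. The TAC pools differed by 0.11 in place of 0.54 (spot SD 0.27), so the TAC pool at 2 weeks no longer stood apart. Both Per genes were dim, and the spot SD of their TAC difference at 2 weeks was 0.23 for Per3 and 0.28 for Per2, against 0.08 for Dbp.

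Nr1d1 and Nr1d2 encode the REV-ERB nuclear receptors, which repress Arntl. Nr1d1 had a signal of 3.18 in sham and 2.43 in TAC hearts at 2 weeks, compared with 2.75 and 2.46 at 8 weeks. For Nr1d2 the sham and TAC pools had 1.77 and 1.17 at 2 weeks, then 1.43 and 1.18 at 8 weeks. Both were highest in the sham pool at 2 weeks and practically equal in the TAC pools, which differed by 0.02 in Nr1d1 and 0.01 in Nr1d2. TAC minus sham at 2 weeks was -0.39 for Nr1d1 and -0.60 for Nr1d2, with spot SDs of 0.10 and 0.11. The receptor genes thus moved in the same direction as Dbp and less far.

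Ciart, which encodes a repressor of the ARNTL and CLOCK pair, had the widest range of the 9 genes, 1.54 on the log2 scale. Its signal was 0.429 in sham and 0.148 in TAC hearts at 2 weeks, and 0.174 in sham and 0.279 in TAC hearts at 8 weeks. TAC hearts were therefore lower than sham hearts at 2 weeks and higher at 8 weeks, with log2 differences of -1.54 and 0.68 and spot SDs of 0.24 and 0.23. It was the only one of the 9 genes whose TAC difference changed sign between the times. The sham pool at 8 weeks was 2.47-fold lower than that at 2 weeks. With normexp its TAC differences were -0.62 and 0.23, and that between the sham pools was -0.52, so that its differences were smaller than the -1.22 of Dbp at 2 weeks and its range was no longer the widest.

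**Figure D1:**
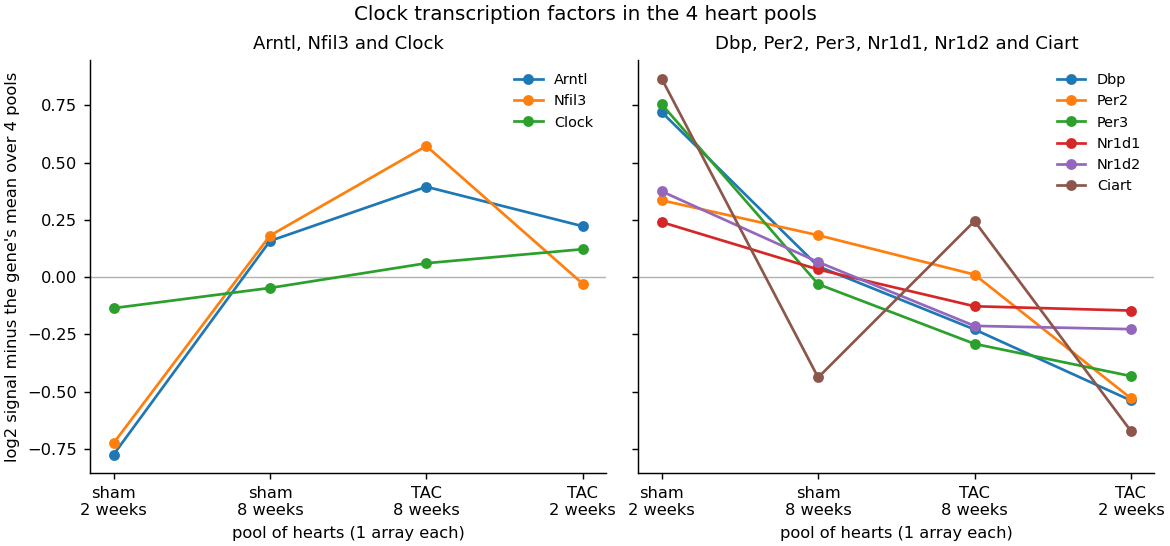
Log2 signal of each gene minus its mean over the 4 pools (vertical axis), with the pools ordered by the clock contrast (horizontal axis) and 1 array per point. Arntl, Nfil3 and Clock were lowest and the 6 genes of the right panel highest in the sham pool at 2 weeks, and Ciart departs from the order of the others in both 8-week pools.

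In the pair of pools at 2 weeks, all 9 measured genes differed by over 2 times their spot SD, with all 3 of the Arntl side higher and all 6 of the Dbp side lower after TAC. The share of all genes beyond 2 times their spot SD was not computed for any pair, so nothing is read from such counts. The median log2 difference was 0.70 for the 3 and -1.03 for the 6, with 0.00 over the 15355 genes tested, where a gene was tested if it was well above background on at least 1 of the 2 arrays. Over 2-fold lower were 3 of the 9, Dbp, Per3 and Ciart, where 1.19% of all genes tested were, and none was over 2-fold higher, where 2.40% of all genes were. At 8 weeks only Nfil3, Dbp, Nr1d2 and Ciart differed between TAC and sham by over 2 times their spot SD. None of the 9 was over 2-fold higher (3.26% of all genes) or lower (2.05%) there, and the medians were 0.24 and -0.22. With normexp only Dbp was over 2-fold lower at 2 weeks, and the differences of Arntl and Per3 were 0.65 and -0.60.

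**Figure D2:**
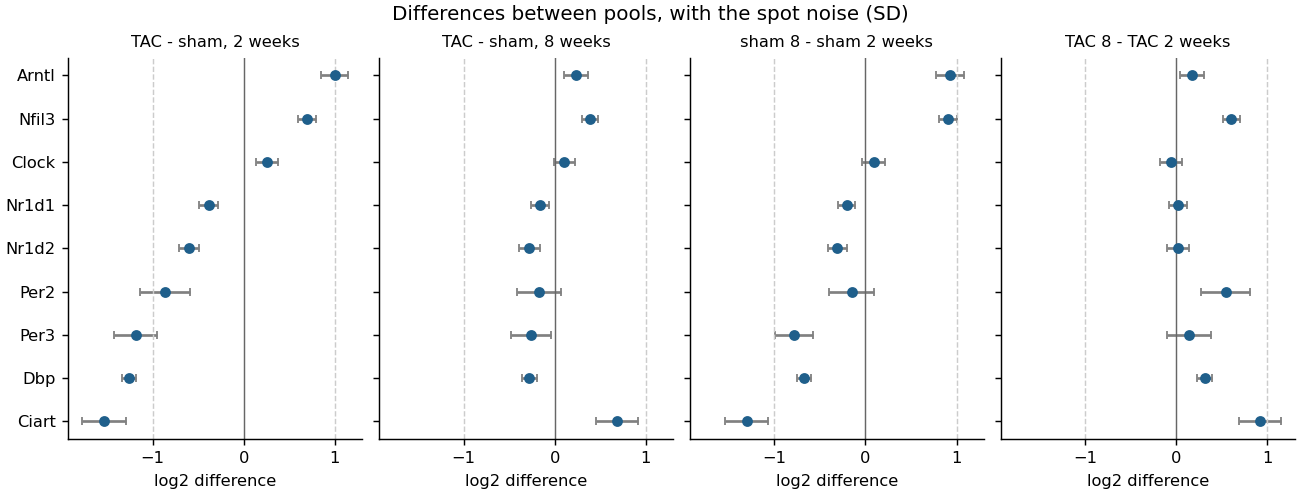
Log2 difference of each measured gene in 4 pairs of pools (horizontal axis), with bars of 1 spot SD, which cover noise between spots only, and dashed lines at 2-fold. Of the 4 pairs, TAC against sham at 2 weeks had the largest difference for all genes but Nfil3, whose largest was that between the sham pools, and both pairs use the sham pool at 2 weeks.

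The sham pools, which differed in age and in time after the operation but not in treatment, were set against each other in the same way. Of the 9 genes, 7 differed by over 2 times the spot SD, all but Clock and Per2, again without a share over all genes to set beside it. All 3 genes of the Arntl side were higher and all 6 of the Dbp side lower at 8 weeks than at 2 weeks. Ciart was the only one over 2-fold lower, where 1.0% of all genes were, and none was over 2-fold higher, where 1.66% were. Between the TAC pools, no gene was over 2-fold higher (1.63% of all genes) or lower (1.69%), and Nfil3, Dbp, Per2 and Ciart differed by over 2 times the spot SD, all of them higher at 8 weeks. The TAC difference at 2 weeks and the difference between the sham pools share the sham pool at 2 weeks, so their like directions are not separate observations.

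The pools were ordered by a clock contrast, the mean centered log2 signal of the 4 genes of the Arntl side minus that of the 6 genes of the Dbp side. It was -1.21 in sham hearts at 2 weeks, 0.08 in sham hearts at 8 weeks, 0.51 in TAC hearts at 8 weeks and 0.62 in TAC hearts at 2 weeks. The sham pool at 2 weeks thus lay at the Dbp end and both TAC pools at the Arntl end, with the sham pool at 8 weeks nearer to the TAC pools than to the other sham pool. The difference between TAC and sham was 1.83 at 2 weeks (spot SD 0.18) and 0.43 at 8 weeks (spot SD 0.23). That between the sham pools was 1.29 (spot SD 0.19), larger than the TAC difference at 8 weeks. With normexp the difference was 1.0 between TAC and sham at 2 weeks, 0.27 at 8 weeks and 0.73 between the sham pools. The TAC pools differed by -0.11 with a spot SD of 0.21, so their order was not resolved. Without Npas2 the contrast was -1.09, 0.12, 0.44 and 0.53 in the same order of pools. The contrast has no unit of time, and with 1 pool per condition a shift of the rhythm and a change in its size cannot be told apart.

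By rank alone, the sham pool at 2 weeks was the highest of the 4 for 6 of the 9 genes, where it was for 21.4% of the 14247 genes well above background on all arrays, and it was the lowest for the remaining 3, where it was for 25.4%. Dbp, Per2, Per3, Nr1d1 and Nr1d2 all followed the order sham at 2 weeks, sham at 8 weeks, TAC at 8 weeks, TAC at 2 weeks from high to low, as 4.05% of all genes did. The range over the 4 pools was above 2-fold for Arntl, Nfil3, Dbp, Per3 and Ciart, 5 of the 9, and for 5.10% of all genes. Since the genes were chosen with these values known, nothing is read from these counts. Of the 27 gaps between neighboring pools in the 9 orders, 13 were within 2 times the spot SD, and only Dbp and Nfil3 separated all 4 pools by more than that. Nfil3 placed them otherwise than Dbp, with the TAC pool at 8 weeks farthest from the sham pool at 2 weeks.

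The change of the TAC difference between the times was in the same direction for all genes of a side. The log2 difference of TAC minus sham at 8 weeks less that at 2 weeks was -0.76 for Arntl, -0.30 for Nfil3 and -0.15 for Clock. It was 0.23 for Nr1d1, 0.32 for Nr1d2, 0.69 for Per2, 0.93 for Per3, 0.98 for Dbp and 2.22 for Ciart. The TAC difference was thus nearer to 0 at 8 weeks for 8 of the 9 genes with its sign kept, and Ciart crossed 0. The share of all genes with a smaller TAC difference at 8 weeks was not computed. The genes were chosen with these values known, and the sham pool at 2 weeks enters each value, so nothing is read from this count. Without scaling between arrays, the 8-week difference of Nr1d1 was 0.0069 and no longer negative. These values were not tested, as each condition has 1 array.

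**Figure D3:**
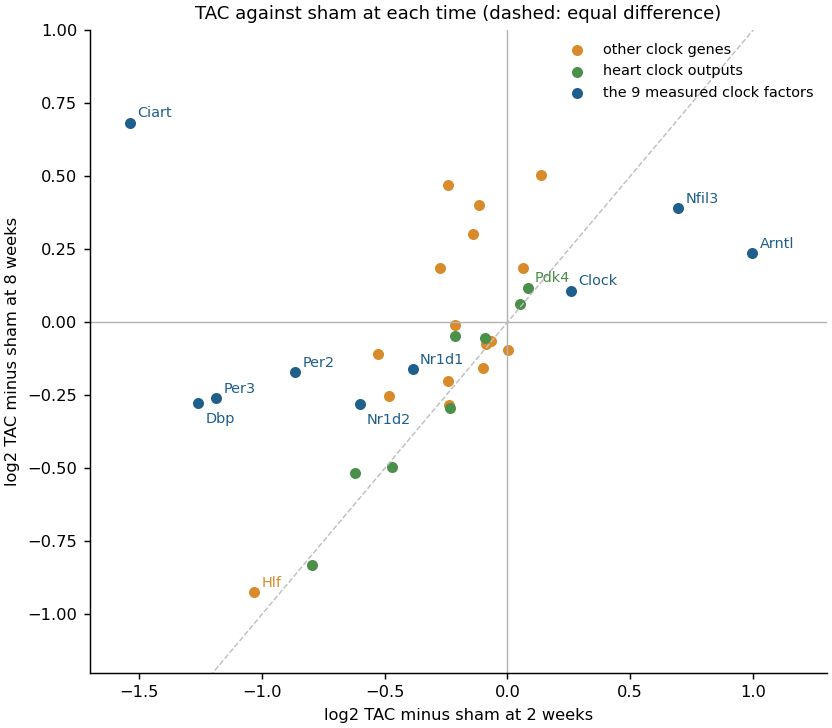
Log2 difference of TAC minus sham at 2 weeks (horizontal axis) and 8 weeks (vertical axis) for the 9 measured clock factors, 16 other clock genes and 8 of the 9 heart clock outputs, 1 point a gene. The clock factors other than Ciart lie between the horizontal line and the dashed line of equal difference, with smaller differences at 8 weeks, while Hlf lies close to the dashed line.

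A list of 17 other clock genes (Per1, the Cry and Ror genes, Tef, Hlf, Bhlhe40 and Bhlhe41, Arntl2, Timeless, kinases and ubiquitin ligase subunits of the loop) was read beside the 10. Of these, 16 were measured in the pair at 2 weeks, of which 13 were lower and 3 higher after TAC, with a median log2 difference of -0.18. At 8 weeks 10 were lower and 6 higher, with a median of -0.07, and between the sham pools the median was -0.13. Over all genes tested the medians were 0.00, -0.01 and 0.03 in these pairs. The share of all genes below 0 was not computed, so nothing is read from the counts by direction. The only one over 2-fold in any pair was Hlf, a D-box factor related to Dbp, with -1.03 at 2 weeks and -0.92 at 8 weeks, against -0.15 between the sham pools. Unlike Dbp, Hlf was therefore lower after TAC by a like amount at both times and close to level between the shams. Tef, the third factor of the Dbp family, and Cry2, a repressor of the loop, were named after their values were seen. They were the 2 of 15 that followed the same order of pools as Dbp, as 4.05% of all genes did. Their TAC pools differed by 0.01 and 0.05, or 0.13 and 0.60 times the spot SD, so the order of the TAC pools was not resolved. The TAC differences of Tef and Cry2 were -0.53 and -0.48 at 2 weeks and -0.11 and -0.25 at 8 weeks.

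Output genes did not all follow the clock factors. Of 8 genes that cycle in many tissues, 6 were lower after TAC at 2 weeks, with a median of -0.33, and 3 were at 8 weeks, with a median of 0.06. Cdkn1a, which encodes the cell cycle inhibitor p21, was the only one over 2-fold, with 1.21 at 2 weeks and 1.15 at 8 weeks. Of 9 genes described as clock outputs in heart, 7 were lower after TAC at each time, with medians of -0.24 and -0.29. The medians over all genes tested were 0.00 and -0.01. The share of all genes that were lower was not computed, so nothing is read from these counts. Pdk4, a kinase that limits glucose oxidation and rises with fasting, differed between the times and hardly between TAC and sham, with -1.67 between the sham pools and -1.64 between the TAC pools for 8 minus 2 weeks.

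Genes that answer glucocorticoids and temperature, which also vary over the day, were set beside these. Of the 9 glucocorticoid-induced genes, the median TAC difference was 0.40 at 2 weeks and 0.51 at 8 weeks, and -0.15 between the sham pools. Over all genes tested the medians were 0.00, -0.01 and 0.03. After TAC 6 were higher and 3 lower at 2 weeks, and 8 were higher and 1 lower at 8 weeks. Nothing is read from these counts, as the share of all genes by direction was not computed. Fkbp5, a chaperone of steroid receptors, was higher after TAC by 0.71 and 1.24. Mt2, a metallothionein, was higher after TAC by 1.11 and 1.81 and differed by -1.58 between the sham pools. Of the 6 heat- and cold-responsive genes with a probe, all were above 0 for 8 minus 2 weeks in sham and in TAC hearts. The share of all genes above 0 was not computed, and their medians were 0.03 and 0.02. Only Hspa1a, an inducible heat shock protein, was over 2-fold, with 2.24 and 2.44. The sham pools thus differed in Ciart, Pdk4, Mt2 and Hspa1a by over 2-fold, and also in the atrial marker Myl7. The part of what lies behind these differences in those of the clock genes was not tested.

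**Figure D4:**
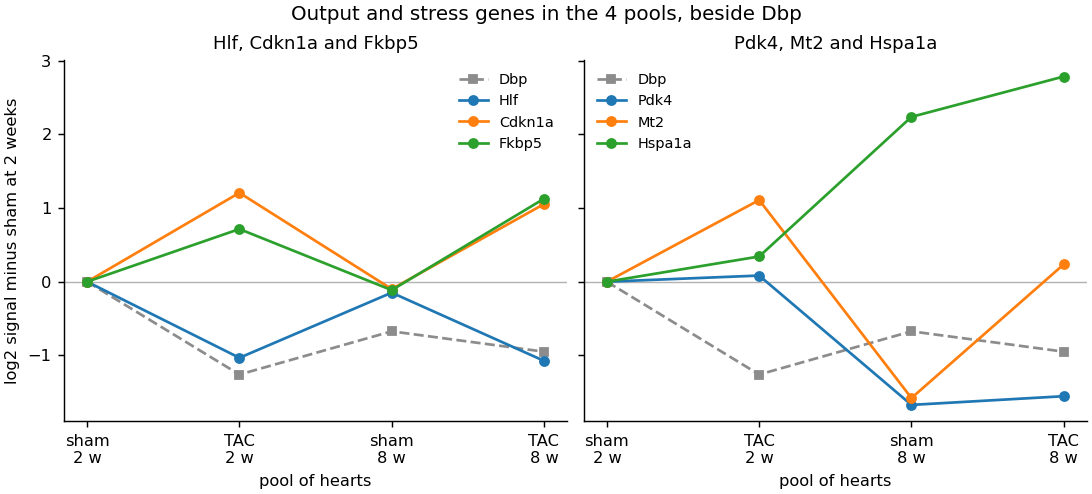
Log2 signal minus that of the sham pool at 2 weeks (vertical axis) in the 4 pools (horizontal axis), 1 array per point, for 6 output and stress genes over 2-fold in some pair, with Dbp as a dashed line. Hlf, Cdkn1a and Fkbp5 separated TAC from sham at both times, and Pdk4 and Hspa1a separated 8 from 2 weeks. Dbp was highest in the sham pool at 2 weeks, with all 4 pools separated by at least 3.48 times the spot SD.

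The genes whose profile over the 4 pools was most like that of Arntl were sought among 14238 other genes well above background on all arrays, by the root mean square distance between centered log2 signals. The nearest were Tfrc, the transferrin receptor, at 0.05, Zap70, a kinase of T-cell signaling, at 0.07, Mmp14, a membrane metalloprotease, at 0.08, Spon2 at 0.09 and Pstpip1 at 0.10. Nfil3 lay at 0.16 from Arntl, farther than these 5 genes, and Clock at 0.38. Nearest to Dbp were Cd5l, a protein secreted by macrophages, at 0.05, then E130308A19Rik at 0.13, Cftr, a chloride channel, at 0.14, Abca4 at 0.15 and Klk1b22 at 0.16. Per3, at 0.08, was nearer to Dbp than all of these but Cd5l, while Nr1d2 and Per2 lay at 0.23 and 0.24. With 4 points a profile is matched by many genes, and the distances are a description of these pools.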

How the data were processed

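The 4 arrays (SurePrint G3 Mouse, 1 color, 1 per condition) were read from the scanner output, in which the authors deposited a processed intensity for every spot, after background and spatial correction but without normalization across arrays. The file headers name Feature Extraction 10.7.3.1 and the submitters' processing notes 9.1. A table of the series that the authors deposited holds the same intensity times a constant per array (3.52 to 4.35) and served as an alternative. Outlier spots were left out, log2 intensity was averaged per probe, and the array's 75th percentile over 55681 probes was subtracted. Of the probes, 29359 had 1 gene name, from RefSeq accessions (26582 of 28116 matched) or Ensembl transcripts (2777 of 4226 matched). For a gene with several probes the one with the highest mean signal was used. A gene was called when it was over 2-fold different and well above background on the brighter array. Spot noise came from the 40 probes nearest in signal among 399 probes with 10 spots. With 1 array per condition no test was made, and the number of arrays limits the precision. The genes and all lists were chosen with earlier results of these data known. Genes outside the 10 were named with values where they were over 2-fold in a pair of pools, with exceptions marked as such, and 1 such gene is not reported here. The counting was checked on simulated data. Alternatives were the median, quantile normalization, no scaling, the percentile over spots, normexp (offset 50, limma 3.58.1 in R 4.3.3), the series table, outlier spots kept, the mean over a gene's probes, folds of 1.5 and 3, and other sets of genes in the contrast. Python 3.11.15 with pandas 2.3.3 and numpy 2.4.6 was used.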

Additional observations from a re-analysis of the deposited data

Results flagged for a closer look

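Ciart had TAC differences of opposite direction at the 2 times, with a log2 difference of TAC minus sham of -1.54 at 2 weeks and 0.68 at 8 weeks. The difference between the times was not tested, because only 1 array was made per condition.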

How the results depend on the processing

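No gene over 2-fold changed direction under the alternatives run, and all 9 kept the direction of TAC minus sham at 2 weeks and of the difference between the sham pools. Near 0, the sign turned for Nr1d1 in TAC minus sham at 8 weeks (without scaling) and between the TAC pools for Clock (without scaling 0.21, median), Per3 (normexp), Nr1d1 and Nr1d2. Arntl was over 2-fold at 2 weeks with quantile normalization and with the series table, which gave 4 genes each. The difference in clock contrast between TAC and sham hearts at 2 weeks was 1.0 with normexp background correction, 1.62 with the genes above background on all arrays and 2.26 with Arntl minus Dbp alone. That between the sham pools was 0.73 with normexp and 1.61 with Arntl minus Dbp, and that of TAC minus sham at 8 weeks was 0.27 with normexp, near its spot SD of 0.23. Leaving out 1 gene at a time gave 1.62 to 2.03 for TAC minus sham at 2 weeks, 0.32 to 0.58 at 8 weeks, 1.14 to 1.5 between the sham pools and -0.24 to 0.01 between the TAC pools. The 3 genes over 2-fold at 2 weeks became 1 with normexp, 7 at 1.5-fold and 0 at 3-fold. The 0 genes at 8 weeks became 1 at 1.5-fold. The 1 gene between the sham pools became 3 without scaling, 0 with normexp, 5 at 1.5-fold and 0 at 3-fold. The 0 genes between the TAC pools became 1 with the median, 1 without scaling and 2 at 1.5-fold. The cause of these changes was not tested. Normexp adds an offset of 50, which narrows differences of dim genes. It was also run on the median spot and background signals, not the processed intensity, and these parts were not separated. Without scaling, the median of all genes between the TAC pools moved to 0.29. No paired analysis was possible because each condition has 1 array and no replicate number. The limits are those of 1 pool per condition: the spread between mice is unknown, the sham pool at 2 weeks enters the largest difference of each of the 9 genes, and Per2, Per3 and Ciart are dim, so their spot noise is high.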
